A study of Homo sapiens with 6 samples.

Results

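The core genes of the PI3K-AKT-mTOR pathway were followed in RNA sequencing of HEK293T cells, a human embryonic kidney line, as 8 genes out of 55871 with a gene symbol. They are the catalytic subunits PIK3CA and PIK3CB and the regulatory subunits PIK3R1 and PIK3R2 of phosphoinositide 3-kinase (PI3K), the kinases AKT1 and AKT2, the kinase MTOR, and TSC2, which restrains MTOR. The genes were matched by symbol, with no cutoff on their values. The list was, however, chosen with earlier results of these data known. All 8 had the minimum of 10 reads in total that placed a gene among the 23345 tested. The data comprise 3 libraries from cells carrying a control shRNA (sh-control) and 3 libraries labelled sh-RREB1, from cells carrying an shRNA against RREB1, a zinc finger transcription factor. All 6 libraries are of one line grown in DMEM with 10% FBS, with no other allele given. By the study's methods the shRNAs were delivered by lentivirus and stable lines were selected with neomycin, with no other agent given for them. Whether a line was a pool or a single clone is not given in the sources used here. The labels do not say that replicates were separate cultures, so p-values measure the spread between these samples, which may be technical.

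PI3K is a heterodimer that, once recruited to an activated receptor, phosphorylates a membrane phosphoinositide. The lipid it makes draws the serine/threonine kinase AKT to the membrane, where PDPK1 and mTOR complex 2 phosphorylate it. Active AKT phosphorylates TSC2, which in complex with TSC1 keeps the small GTPase RHEB in its inactive state. RHEB bound to GTP activates mTOR complex 1, which drives translation and cell growth and holds back autophagy. Most of this control acts on proteins and lipids, and transcript levels report only on how much mRNA was present.

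Depth ranged from 12257054 to 33044061 reads on genes per library, and the shallowest library was sh-RREB1 replicate 3. That library also stood apart with 24112715 reads mapping to several places, where the others had 1407340 to 3107040. Without it the log2 difference was 1.48 for AKT1 (adjusted p = 0.0795, edgeR quasi-likelihood test with Benjamini-Hochberg adjustment), 0.97 for AKT2 (adjusted p = 0.0696) and 1.49 for TSC2 (adjusted p = 0.0241). RREB1 itself had 27.1, 25.2 and 26.6 CPM (reads per 1000000 reads on genes, scaled by the trimmed mean of M-values) in the sh-control libraries against 23.7, 24.6 and 23.1 CPM under the sh-RREB1 label. The groups did not overlap, yet the log2 difference of -0.14 (SE 0.13) did not pass the test (adjusted p = 0.485, edgeR quasi-likelihood test with Benjamini-Hochberg adjustment). The study reports that its HEK293 cells with an shRNA against RREB1 had lost most of the RREB1 mRNA, and a smaller part of the protein. A loss of that size was not seen in these counts, where the fitted change in RREB1 was -9.34%. The source of this disagreement was not tested. Marker levels in this paragraph are reads per 1000000 reads on genes, without the trimmed mean scaling. Of 6 markers of HEK293 cells, 5 were above 1 CPM, with a summed level of 410 to 445 CPM in sh-control libraries and 693 to 777 CPM in the others. Most of that sum was VIM, at 321 to 345 CPM in sh-control libraries and 546 to 617 CPM in the others. None of 5 lymphocyte markers averaged over 1 CPM, MS4A1 was at 0 throughout, and of 6 fibroblast markers 3 exceeded 1 CPM, with sums of 5.70 to 7.09 CPM and 7.03 to 19.0 CPM. The highest sum was that of sh-RREB1 replicate 2, with COL3A1 at 8.46 CPM and COL1A2 at 3.94 CPM, where the other libraries had at most 3.36 CPM and 0.0817 CPM, and without that library the log2 difference was 1.20 for AKT1 (adjusted p = 0.101, edgeR), 0.79 for AKT2 (adjusted p = 0.0713) and 1.29 for TSC2 (adjusted p = 0.0139). Of 5 cardiac markers 1 exceeded 1 CPM, and MYH7 and NPPA were at 0. The part of these marker differences in the results was not tested, and in bulk RNA fewer cells with a transcript and less of it per cell cannot be told apart. The libraries also differed in how their levels followed base composition: expressed genes were sorted by the GC content of their exons into 10 bins of equal size, and the median deviation of the richest bin minus that of the poorest was -1.61, -0.42 and -0.13 (log2) in the sh-control libraries against 0.37, 1.27 and 0.55 under the sh-RREB1 label. The groups did not overlap in this measure, so the values of each core gene are given below with its GC content and with the same fit after a correction for GC content and length. That correction removes any difference that follows GC content, whatever its source.

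Among the promoter windows of the core genes, the hexamer CCACCC was searched because RREB1 is known to bind C-rich DNA that holds it. RefSeq (GRCh38.p14) gave 15 windows of 300 bases for the 8 genes, each running from upstream of a transcription start to just past it. Of these, 4 windows held CCACCC on either strand, against 34.3% of all 35116 windows. The hexamer is also part of the CACCC boxes bound by KLF and SP factors, and it was kept after 3 related letter strings had been counted in these windows, of which CCCCACC was in 3 windows (18.5% of all) and ACCACCC in 1 window (4.8% of all). The windows of PIK3CA and AKT2 at their outermost RefSeq starts and that of AKT1 at an internal start are shown. These are genes whose values are described most closely below and whose windows hold a match. The hexamer or its reverse complement is in capitals. The windows shown lie at chr3:179148107-179148406 on the plus strand (PIK3CA), at chr19:40285296-40285595 on the minus strand (AKT2) and at chr14:104793552-104793851 on the minus strand (AKT1). Those of PIK3CA and AKT2 lie mostly inside the gene spans given below, which come from another annotation.
PIK3CA: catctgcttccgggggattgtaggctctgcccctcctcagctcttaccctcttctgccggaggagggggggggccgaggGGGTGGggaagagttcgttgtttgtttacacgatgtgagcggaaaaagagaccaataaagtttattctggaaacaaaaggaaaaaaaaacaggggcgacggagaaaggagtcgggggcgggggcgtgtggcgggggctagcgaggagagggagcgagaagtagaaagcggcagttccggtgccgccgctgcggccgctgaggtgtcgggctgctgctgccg
AKT2: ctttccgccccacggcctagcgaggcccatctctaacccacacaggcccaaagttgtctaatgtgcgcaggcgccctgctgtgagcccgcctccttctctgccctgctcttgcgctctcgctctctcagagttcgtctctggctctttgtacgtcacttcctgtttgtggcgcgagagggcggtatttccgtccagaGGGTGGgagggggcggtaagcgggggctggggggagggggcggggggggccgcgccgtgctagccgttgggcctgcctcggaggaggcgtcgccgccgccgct
AKT1: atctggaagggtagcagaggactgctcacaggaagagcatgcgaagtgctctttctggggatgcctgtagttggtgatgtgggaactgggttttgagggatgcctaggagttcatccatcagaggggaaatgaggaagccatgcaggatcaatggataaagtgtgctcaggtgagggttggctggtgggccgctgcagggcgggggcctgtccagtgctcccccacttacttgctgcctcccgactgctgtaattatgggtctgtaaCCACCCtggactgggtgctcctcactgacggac
A second AKT2 window, at an internal start, held the fourth match. By chromatin immunoprecipitation in HEK293 cells with an inducible tagged RREB1, the study did not detect RREB1 at the AKT1 promoter. It proposes that the change of AKT1 after knockdown was indirect. Where its amplicon lay relative to the AKT1 window shown was not compared. Neither TSC2 window, which had a GC content of 73.0% and 74.7%, held the hexamer, nor did the MTOR window (59.3%) or the outermost AKT1 window (83.3%). All windows of the genome had a median GC content of 58.7%.

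Seen together, the AKT kinases and TSC2 stood higher under the sh-RREB1 label, and no core PI3K subunit passed an adjusted p of 0.05 in this fit. PIK3CA passed it, on the lower side, in 6 of 8 fits that changed the tool, scaling, filter, counts or block, and PIK3R1 in 3 of them (DESeq2, upper-quartile scaling and the replicate block). AKT1, AKT2 and TSC2 passed an adjusted p of 0.05, all 3 upwards, against a background of 10.8% of all genes tested that were higher at that threshold, and none of the 8 was lower, where the background was 8.81%. TSC2 alone met the stricter call of an adjusted p under 0.01 with a log2 difference over 1, which 3.41% of all genes met. The groups did not overlap in 7 of the 8 genes, with 4 higher and 3 lower, while 41.1% of all genes did not overlap in one direction or the other. The 4 that were higher had a GC content between 50.5% and 62.4%, and the 3 that were lower had one between 34.9% and 41.0%.

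**Figure D1:**
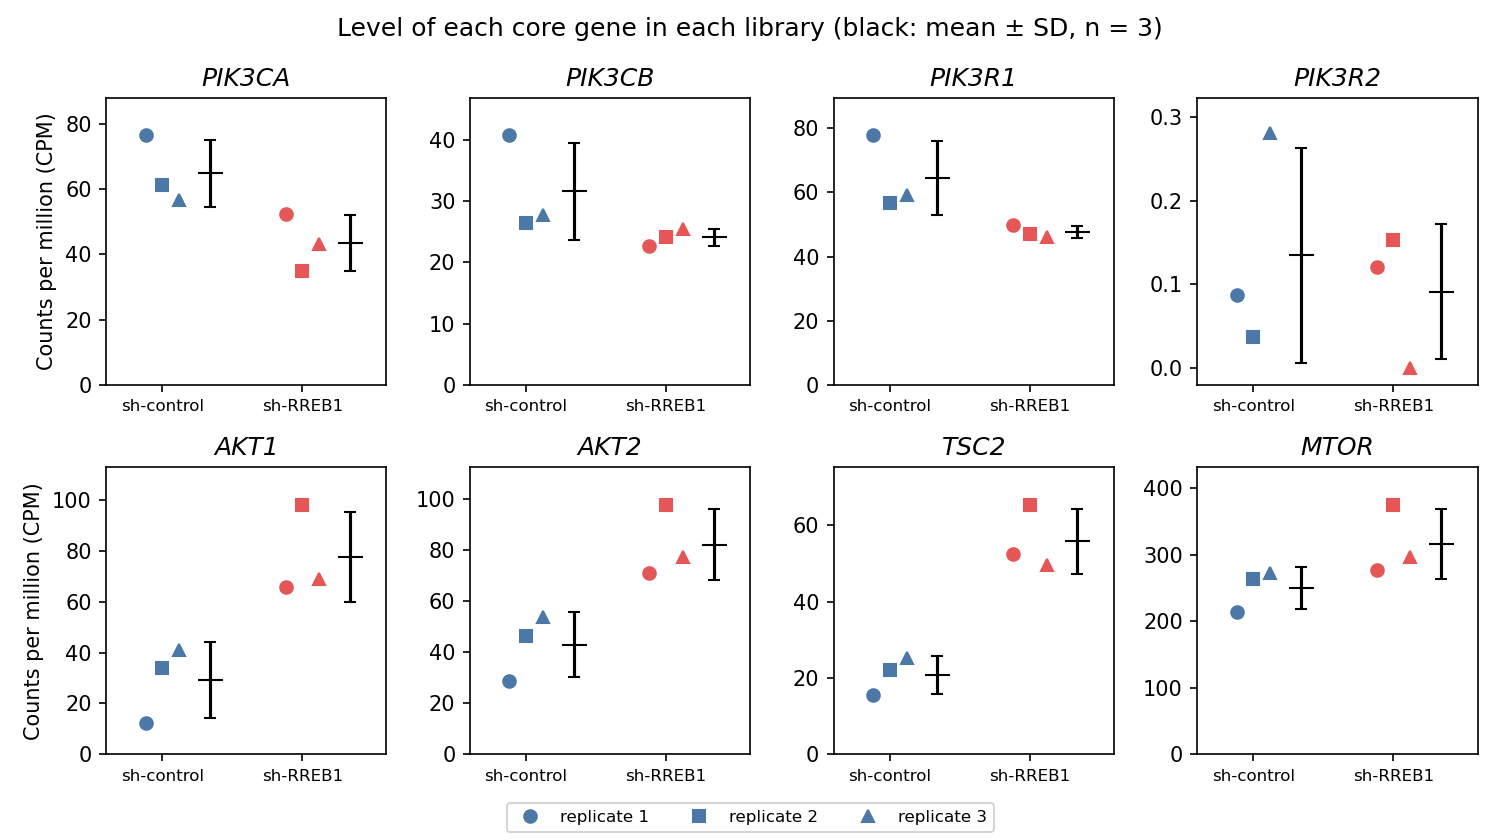
Level of each of the 8 core genes in CPM (linear axis, scaled separately per gene) in the 3 sh-control libraries (blue) and the 3 libraries labelled sh-RREB1 (red), with marker shape giving the replicate and black bars the mean ± SD. All points of AKT1, AKT2, TSC2 and MTOR are higher in red than in blue, those of PIK3CA, PIK3CB and PIK3R1 lower, and PIK3R2 stays under 0.3 CPM.

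PIK3CA, on chromosome 3 from 179148114 to 179240093 (plus strand, hg38, as are the coordinates that follow), encodes the catalytic subunit p110 alpha, which serves most receptor tyrosine kinases. It had 76.4, 61.4 and 56.6 CPM in sh-control libraries and 52.2, 35.0 and 43.0 CPM in those labelled sh-RREB1. Every sh-control library lay above every other one, and the mean went from 64.8 ± 10.4 to 43.4 ± 8.62 CPM (SD, n = 3). The log2 difference of -0.58 (SE 0.18, 95% confidence interval -0.98 to -0.17) just missed the threshold (edgeR quasi-likelihood, Benjamini-Hochberg adjusted p = 0.0512). Its exons have the lowest GC content of the 8 genes, 34.9%, and after the GC and length correction the log2 difference was -0.35 (adjusted p = 0.0411 by the same test). Exons of KCNMB3 on the opposite strand cover 19.8% of its exonic bases, and reads were counted by strand.

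PIK3CB, on chromosome 3 from 138652698 to 138834928 (minus strand), encodes p110 beta, the catalytic subunit that also answers G protein-coupled receptors. Its levels were 40.7, 26.4 and 27.7 CPM in the sh-control libraries and 22.7, 24.1 and 25.4 CPM in the others. The sh-control replicate 1 stood well above the rest, and the remaining values lay within a few CPM of each other. The log2 difference was -0.39 (SE 0.19, adjusted p = 0.171, edgeR) and was 0.01 after the GC and length correction (95% confidence interval -0.28 to 0.30, adjusted p = 0.977). With scaling recomputed after the correction it was -0.088 (adjusted p = 0.699, edgeR), so the corrected direction was not settled.

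PIK3R1, on chromosome 5 from 68215740 to 68301821 (plus strand), encodes p85 alpha, which stabilises the catalytic subunits and docks them on phosphotyrosine. It gave 77.8, 56.9 and 59.1 CPM in sh-control libraries against 49.9, 47.0 and 46.1 CPM under the sh-RREB1 label. The groups were separate, and the latter were tightly spaced, at a mean of 47.7 ± 1.98 CPM (SD, n = 3). The log2 difference of -0.44 (SE 0.14) did not pass (adjusted p = 0.0654, edgeR), and it was -0.10 after the correction (adjusted p = 0.561).

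PIK3R2, on chromosome 19 from 18153163 to 18170532 (plus strand), encodes p85 beta and could not be measured in these counts. It had 2, 1 and 9 reads in the sh-control libraries and 3, 4 and 0 reads in the others, where a count of 0 at the depth of sh-RREB1 replicate 3 allows up to 0.245 CPM, for counting error only. An overlapping readthrough gene on the same strand, ENSG00000268173, shares 76.4% of its exonic bases and had 0 reads in every library, and the counting left out reads that fall on more than one gene. What share of its reads was left out this way was not tested, so the count is not read as a level, and the log2 difference of -0.39 has a 95% confidence interval of -2.44 to 1.65.

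Among the related PI3K subunits, PIK3R3, which encodes p55 gamma, another regulatory subunit, fell. It had 79.4, 85.5 and 91.1 CPM in sh-control libraries and 47.6, 56.1 and 55.7 CPM in those labelled sh-RREB1, a log2 difference of -0.68 (SE 0.12, adjusted p = 0.00754, edgeR). It shares 17.5% of its exonic bases with a readthrough gene on the same strand. The difference was -0.50 after the GC and length correction (adjusted p = 0.0109). PIK3CD, the catalytic subunit p110 delta of leukocytes, had 2.48 to 4.48 CPM over all libraries (log2 difference 0.15, adjusted p = 0.714), and after the GC and length correction its difference turned to -0.53 (adjusted p = 0.0466). The ratio of PIK3CA to PIK3CB per kilobase of transcript was 1.27, 1.57 and 1.38 in sh-control libraries and 1.56, 0.984 and 1.14 in the others, groups that overlapped in 1 library of the latter (exact two-sided permutation test, p = 0.4, n = 3 per group, where the smallest p possible is 0.1, so the test could not have shown a change). Its log2 difference was -0.22 as counted, -0.35 after the correction and between -0.40 and -0.07 when 1 library was left out.

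AKT1, on chromosome 14 from 104769349 to 104795751 (minus strand), encodes the widely expressed AKT kinase linked to growth and survival. It had 12.4, 34.1 and 41.1 CPM in the sh-control libraries and 65.6, 98.1 and 69.1 CPM in those labelled sh-RREB1. The lowest of the latter exceeded the highest sh-control library, and the sh-control libraries alone spanned a 3.31-fold range. Mean levels were 29.2 ± 15.0 and 77.6 ± 17.8 CPM (SD, n = 3), and the fitted log2 difference was 1.41 (SE 0.38, 95% confidence interval 0.56 to 2.26, adjusted p = 0.0316, edgeR). After the GC and length correction the difference was 0.43 (95% confidence interval 0.08 to 0.78) and did not pass (adjusted p = 0.0778). Leaving out 1 library in turn kept the uncorrected difference between 1.01 and 1.70, with an adjusted p under 0.05 in 2 of 6 such fits, those without sh-control replicate 1 and without sh-control replicate 3. AKT1 is among the genes the study picked out on these libraries, so its direction here is not independent evidence. On blots of HEK293 cells the study also describes more AKT protein after RREB1 knockdown, with AKT signaling unchanged after stimulation with FBS.

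AKT2, on chromosome 19 from 40230317 to 40285536 (minus strand), encodes the AKT kinase best known for its part in the insulin response. Its levels were 28.7, 46.6 and 53.8 CPM in the sh-control libraries and 71.3, 97.8 and 77.4 CPM in the others, again without overlap. The log2 difference was 0.93 (SE 0.23, adjusted p = 0.0231, edgeR), and after the correction 0.44 (adjusted p = 0.0193). Left out in turn, 3 of the 6 libraries took its uncorrected adjusted p above 0.05, the highest being 0.0758.

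The ratio of AKT1 to AKT2 per kilobase was 0.766, 1.30 and 1.36 in sh-control libraries and 1.63, 1.78 and 1.58 in the others. These did not overlap (exact two-sided permutation test, p = 0.1, the smallest possible with n = 3 per group). The log2 difference in that ratio was 0.59 as counted and 0.03 after the GC and length correction.

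TSC2, on chromosome 16 from 2047967 to 2089491 (plus strand), encodes tuberin, the GTPase-activating subunit of the complex that switches RHEB off. It had 15.4, 22.0 and 25.2 CPM in the sh-control libraries and 52.4, 65.4 and 49.5 CPM in those labelled sh-RREB1. The groups were separated by more than the range of either, and the means were 20.9 ± 4.96 and 55.8 ± 8.43 CPM (SD, n = 3). Its log2 difference of 1.42 (SE 0.20, 95% confidence interval 0.96 to 1.87) was called (adjusted p = 0.00418, edgeR). After the GC and length correction the difference was 0.44 (95% confidence interval 0.19 to 0.68, adjusted p = 0.0139), which lay under the fold required for a call. Leaving out sh-control replicate 2 or any one of the libraries labelled sh-RREB1 also took its adjusted p above 0.01, to between 0.0139 and 0.0324, while the difference stayed between 1.29 and 1.49.

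TSC1, which encodes hamartin, the partner that stabilises tuberin, went the other way. It had 127, 130 and 124 CPM in sh-control libraries and 88.4, 110 and 92.7 CPM in the others, a log2 difference of -0.39 (SE 0.12, adjusted p = 0.0448, edgeR) that was -0.23 after the correction (adjusted p = 0.192). Per kilobase of transcript, sh-control libraries held 14.8 ± 0.306 CPM per kb of TSC1 and 3.25 ± 0.773 of TSC2, and the libraries labelled sh-RREB1 held 11.3 ± 1.32 and 8.69 ± 1.31 (SD, n = 3). These per-kilobase levels were not corrected for GC content. TBC1D7, the third subunit of the complex, named here after its values were seen, also fell, from 40.1 ± 0.993 to 27.8 ± 1.01 CPM (log2 difference -0.53, adjusted p = 0.0182, edgeR; after the correction -0.24, adjusted p = 0.209). RHEB, the GTPase on which the complex acts, had a log2 difference of -0.19 (adjusted p = 0.263).

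MTOR, on chromosome 1 from 11106535 to 11262556 (minus strand), encodes the kinase shared by both mTOR complexes. Per kilobase it was the most abundant core gene, and its levels were 214, 263 and 272 CPM in sh-control libraries and 276, 375 and 297 CPM in those labelled sh-RREB1. The groups did not overlap, but the highest sh-control and the lowest other library were close to each other. The log2 difference of 0.34 (SE 0.15) did not pass (adjusted p = 0.139, edgeR), and it was 0.33 after the GC and length correction (adjusted p = 0.0802). MTOR transcripts outnumbered those of TSC2 per kilobase by a ratio of 10.2, 8.81 and 7.96 in sh-control libraries and of 3.88, 4.22 and 4.40 in the others. This ratio was lower in all 3 of the latter (exact two-sided permutation test, p = 0.1, the smallest possible with n = 3 per group). Its log2 difference was -1.10 as counted and -0.10 after the correction.

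As counted, without the GC and length correction, the length-scaled levels of the core genes fell in a different order in the groups. In sh-control libraries MTOR led with 28.7 ± 3.61 CPM per kilobase of its representative (MANE Select) transcript (SD, n = 3). AKT1 (9.87 ± 5.06), PIK3R1 (9.26 ± 1.65), AKT2 (8.20 ± 2.46), PIK3CA (7.0 ± 1.12) and PIK3CB (5.05 ± 1.26) followed, each overlapping its neighbours in this order over the 3 libraries. TSC2 came last of the 7 measurable genes at 3.25 ± 0.773 CPM per kb, below all libraries of PIK3CB. In the libraries labelled sh-RREB1 the order was MTOR (36.2 ± 5.96), AKT1 (26.2 ± 6.03), AKT2 (15.7 ± 2.65), TSC2 (8.69 ± 1.31), PIK3R1 (6.83 ± 0.285), PIK3CA (4.69 ± 0.931) and PIK3CB (3.84 ± 0.222), in which MTOR overlapped AKT1 and PIK3CA overlapped PIK3CB, while the other neighbours were separate. Scaled by all annotated exons instead, sh-control levels ran from MTOR (18.7) through PIK3CB (4.03), PIK3R1 (3.96), PIK3CA (3.77), AKT2 (2.71) and AKT1 (2.67) to TSC2 (1.02 CPM per kb), and those labelled sh-RREB1 from MTOR (23.6) through AKT1 (7.08), AKT2 (5.17), PIK3CB (3.07), PIK3R1 (2.92) and TSC2 (2.72) to PIK3CA (2.53). The order of the 5 genes in the middle in sh-control libraries, and the place of TSC2 above PIK3R1 in the others, therefore depend on the transcript length used. The genes also differ in GC content, and the GC measure of the libraries did not overlap between groups. The part of GC content in these orders, and in their difference between groups, was not tested.

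**Figure D2:**
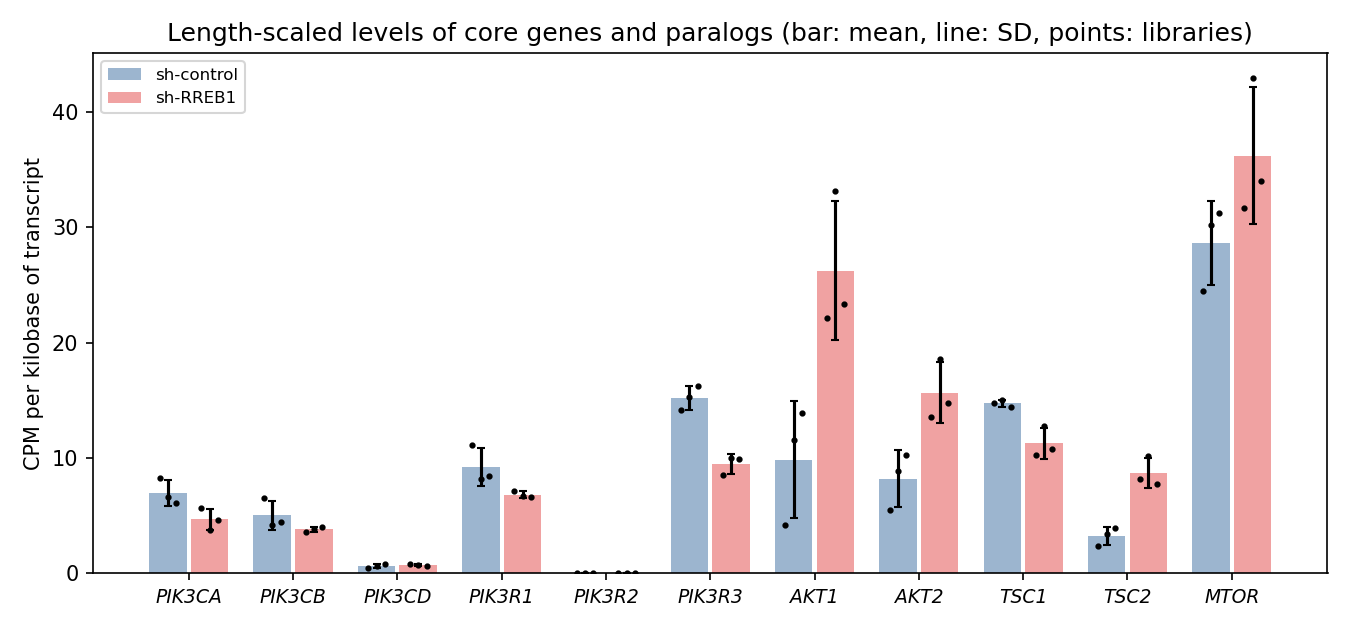
CPM per kilobase of the representative transcript for core genes and their closest relatives (bars start at 0 and give the mean, lines the SD, points the 3 libraries of each group; blue sh-control, red labelled sh-RREB1). MTOR stands highest in sh-control libraries, at a mean of 28.7, and AKT1 rises from 9.87 to 26.2 while TSC1 goes from 14.8 to 11.3 and TSC2 from 3.25 to 8.69. Levels are not corrected for GC content.

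Set among expressed genes of like GC content, the 7 measurable core genes lay beyond the median on the side of their own difference, and 5 of them stayed inside the middle 50% of genes. Over the 10 bins of GC content the median log2 difference ran from -0.23 in the poorest to 1.11 in the richest. AKT1 and TSC2 fell in the richest bin, 0.30 and 0.31 above its median and at the 69.4th and 69.8th percentile of its genes. AKT2 was 0.32 above the median of its bin (75.4th percentile) and MTOR 0.24 above that of its own (71.2nd percentile). PIK3R1 was at -0.19 and PIK3CB at -0.14 relative to the medians of theirs, at the 28.6th and 32.4th percentiles. PIK3CA, in the poorest bin, was at -0.34 relative to its median and at the 14.0th percentile, the farthest out of the 7 genes. These positions are descriptions of the same contrast and were not tested.

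**Figure D3:**
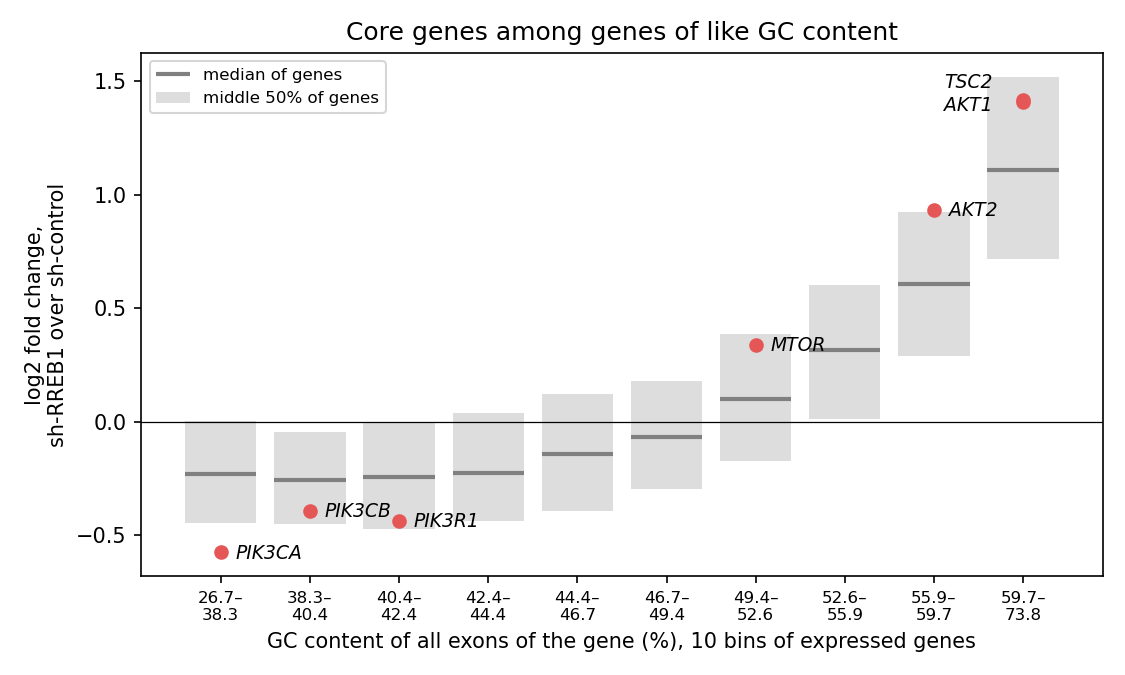
The log2 difference of each core gene (red points; libraries labelled sh-RREB1 over sh-control) against 10 bins of expressed genes by GC content of their exons, with grey boxes for the middle 50% of genes and a grey line for the median. Medians run from -0.23 to 1.11 with rising GC content, AKT1 and TSC2 overlie each other in the richest bin, and PIK3CA lies below the box of the poorest.

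After the GC and length correction, 3 of the 8 genes had an adjusted p under 0.05, where the background was 20.1% of all genes in either direction: TSC2 and AKT2 were higher and PIK3CA lower. With 1 library left out of the corrected fit, TSC2 passed in 2 of 6 fits, PIK3CA in 2 and AKT2 in 3, with adjusted p values up to 0.0926, 0.178 and 0.0771. By direction, 14.0% of all genes were higher and 6.12% lower. DESeq2 on the uncorrected counts called 2 genes, TSC2 and AKT1, at the stricter threshold, against a background of 7.06% of all genes. The corrected differences of AKT1, AKT2, TSC2 and MTOR lay close to each other, between 0.33 and 0.44, where the uncorrected ones ran from 0.34 to 1.42. The correction also moved the median of all genes to 0.10, from 0.01.

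**Figure D4:**
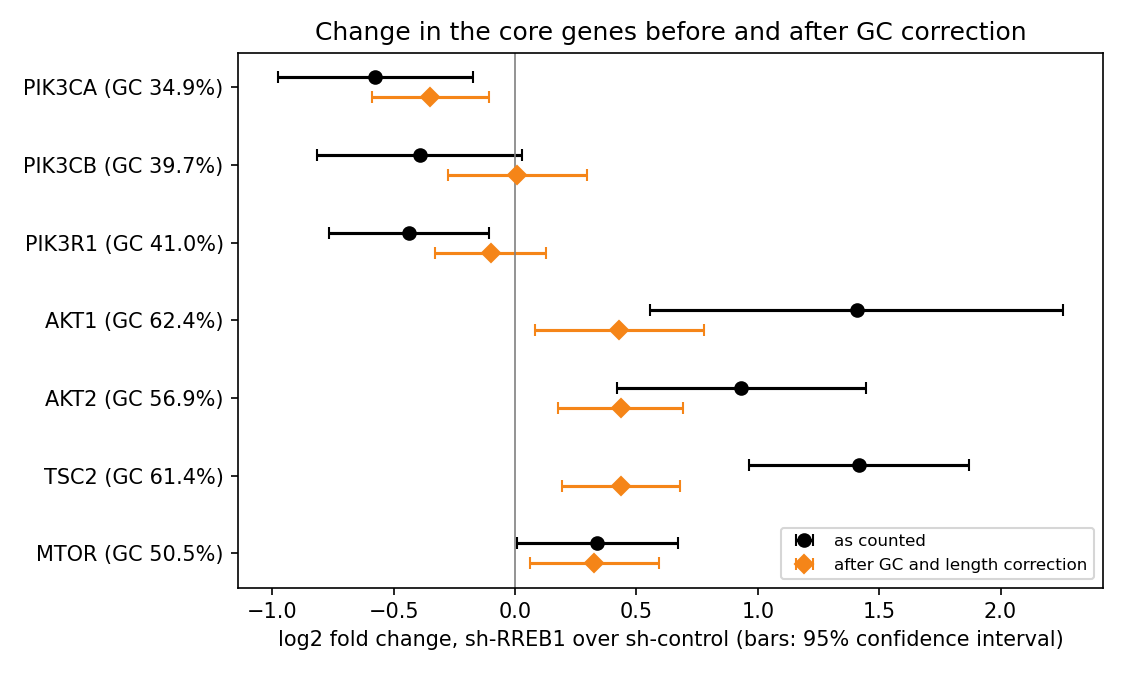
The log2 difference (libraries labelled sh-RREB1 over sh-control) of the 7 measurable core genes with its 95% confidence interval, as counted (black circles) and after the GC and length correction (orange diamonds), with the GC content of the exons beside each name. AKT1 and TSC2 move from 1.41 and 1.42 to 0.43 and 0.44, MTOR stays at 0.34 and 0.33, and PIK3CB moves from -0.39 to 0.01.

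Of the 8 core genes, 4 followed the order of the libraries in GC content. Sorted by the GC measure given above, the libraries run from sh-control replicate 1, 2 and 3 to sh-RREB1 replicate 1, 3 and 2. AKT1, AKT2 and MTOR rose at every step of that order, as did 5.61% of all genes tested, and PIK3CA fell at every step, as did 3.97%. TSC2, PIK3R1, PIK3CB and PIK3R2 did not follow that order throughout. Genes with the most similar pattern over the 6 libraries were named by the root mean square difference of their centred log2 CPM from that of the core gene, among 14506 others with at least 1 CPM on average. For AKT1 these were FAM3A (0.04), PAFAH1B3 (0.05) and JMJD8 (0.06), for PIK3CA they were SMPDL3A (0.02), PIK3C2A (0.03) and TXNDC16 (0.03), and for MTOR they were SPTBN1 (0.02), CNNM4 (0.02) and TM9SF4 (0.03). PIK3C2A encodes a class II PI3K catalytic subunit and went from 294 ± 46.5 to 199.8 ± 43.4 CPM (SD, n = 3; log2 difference -0.56, adjusted p = 0.0538, edgeR).

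Around the core genes, 103 further genes of the pathway were listed by role, of which 99 were tested. At an adjusted p under 0.05, 21 were higher and 7 lower, and 5 met the stricter call, all higher. The shares over all genes tested were 10.8%, 8.81% and 3.41%, and the last 2 counts were near these. Those shares include many genes of low count. Of 12159 protein-coding genes with at least 1 CPM on average, 1967 were higher and 1806 lower at an adjusted p under 0.05. The 5 calls fell to 0 without sh-control replicate 2 or any 1 of the libraries labelled sh-RREB1, and to 2 without sh-control replicate 3. The median log2 difference of the 99 genes was 0.06, beside 0.01 over all genes tested. After the GC and length correction 20 were higher and 6 lower, and 4 were called, against 14.0%, 6.12% and 3.80% of all genes.

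The subunits and partners of the mTOR complexes held 3 of the 5 called genes. Of 10 tested, 3 were called, 6 were higher and 1 was lower at an adjusted p under 0.05, beside 3.41%, 10.8% and 8.81% of all genes, and their median log2 difference was 0.99. It was 0.19 after the GC and length correction, with 4 higher and 1 lower, against 14.0% and 6.12% of all genes. MLST8, a subunit of both complexes that binds the kinase domain, had 1.83, 3.46 and 3.52 CPM in sh-control libraries and 26.5, 21.2 and 12.8 CPM in those labelled sh-RREB1. This 6.85-fold difference (log2 2.78, SE 0.33, adjusted p = 0.00273, edgeR) was the largest among the 99 genes, and it was 1.77 on the log2 scale after the GC and length correction (adjusted p = 8.63e-05). RPTOR, the scaffold that presents substrates to mTOR complex 1, had 11.0, 15.8 and 16.4 CPM against 33.2, 39.5 and 31.0 CPM (log2 difference 1.26, adjusted p = 0.00509; corrected 0.75). PRR5L, a partner of mTOR complex 2, was low but separate, at 2.10 to 2.90 CPM against 6.24 to 8.52 CPM (log2 difference 1.45, adjusted p = 0.00484), and its difference was unmoved by the correction, at 1.47, its exons having a GC content of 50.7%.

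TELO2, which helps fold and assemble MTOR and its sister kinases, had 0.304, 2.10 and 2.49 CPM in sh-control libraries and 10.7, 11.1 and 7.45 CPM in the others (log2 difference 2.55, adjusted p = 0.0119, edgeR; corrected 1.27, adjusted p = 0.00219). PRR5, another partner of mTOR complex 2, differed by 1.10 as counted (adjusted p = 0.0373) and by 0.05 after the correction, and it overlaps a readthrough gene on the same strand. RICTOR, the scaffold of mTOR complex 2, had a negative log2 difference of -0.57 that did not pass (adjusted p = 0.0641), with a GC content of 36.2%. DEPTOR, an inhibitory subunit of both complexes and named here after its values were seen, fell from 8.38 ± 0.254 to 5.05 ± 0.295 CPM (SD, n = 3; log2 difference -0.73, adjusted p = 0.0158; corrected -0.46, adjusted p = 0.0381).

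**Figure D5:**
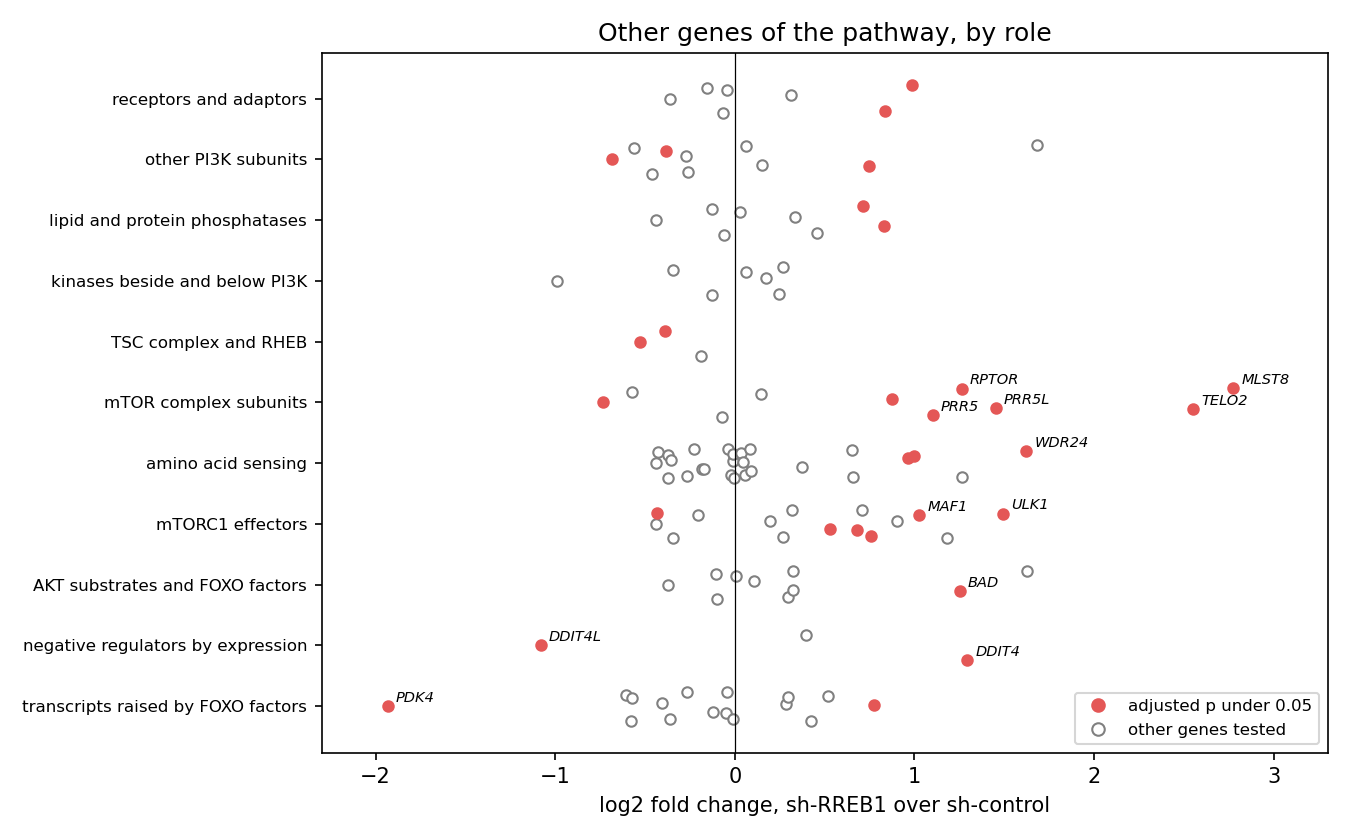
The log2 difference (libraries labelled sh-RREB1 over sh-control) of the other pathway genes and of transcripts raised by FOXO factors, in rows by role, with filled red points for an adjusted p under 0.05 and open points for the other genes tested; vertical scatter within a row has no meaning. The mTOR complex subunits reach furthest to the right, with MLST8 at 2.78 and TELO2 at 2.55, and PDK4 lies furthest to the left at -1.93.

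Upstream, the 7 receptors and adaptors included 2 genes higher at an adjusted p under 0.05 and none lower, beside 10.8% and 8.81% of all genes. After the GC and length correction 2 were higher and 1 lower, against 14.0% and 6.12% of all genes. The text first describes the 2 that were higher as counted. Both are named here after their values were seen. IGF1R, the receptor for insulin-like growth factors, had 37.3, 28.8 and 28.6 CPM in sh-control libraries and 56.3, 60.1 and 52.3 CPM in the others (log2 difference 0.83, adjusted p = 0.00774, edgeR). IRS1, a docking protein that couples it to PI3K, had 2.27 to 2.48 CPM against 4.04 to 5.07 CPM (log2 difference 0.98, adjusted p = 0.00974, edgeR). The GC and length correction moved neither, at 0.81 and 1.0, and their exons have a GC content of 50.9% and 50.6%. The related IRS4 and IRS2 are also named after their values were seen. IRS4 was far more abundant than IRS1, at 885 ± 80.6 against 794 ± 127 CPM (SD, n = 3, log2 difference -0.16, adjusted p = 0.460, edgeR). IRS2 differed by -0.36 as counted (adjusted p = 0.375, edgeR) and by -1.03 after the correction (adjusted p = 0.0331). PDPK1, the kinase that phosphorylates AKT at the membrane, had a log2 difference of 0.18 (95% confidence interval -0.15 to 0.50, adjusted p = 0.431).

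Below mTOR complex 1, 5 of 15 effectors tested were higher and 1 lower at an adjusted p under 0.05, beside 10.8% and 8.81% of all genes. After the GC and length correction 3 were higher and 0 lower, against 14.0% and 6.12% of all genes. ULK1, the kinase that starts autophagy, was called at 0.783, 1.18 and 1.62 CPM against 3.46, 3.51 and 3.25 CPM (log2 difference 1.49, adjusted p = 0.00826, edgeR), but the difference was 0.37 after the GC and length correction (adjusted p = 0.239). MAF1, a repressor of RNA polymerase III, showed the same pattern, 1.03 as counted and 0.05 corrected. EIF4EBP2, a translation repressor that mTOR complex 1 inhibits and named here after its values were seen, had 147, 111 and 107 CPM against 212, 200 and 204 CPM (log2 difference 0.76, adjusted p = 0.00851; corrected 1.02). Its exons have a GC content of 44.7%, and the correction enlarged the difference.

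Of 3 inhibitors that act through their own expression, 1 was higher and 1 lower, beside 10.8% and 8.81% of all genes. TRIB3, a pseudokinase that binds AKT, did not pass (log2 difference 0.40, adjusted p = 0.239, edgeR, corrected -0.29). DDIT4, which releases the TSC complex under stress and thereby lowers mTOR complex 1 activity, had 11.5, 18.2 and 20.3 CPM in sh-control libraries and 34.4, 47.9 and 40.5 CPM in the others (log2 difference 1.29, adjusted p = 0.00765, edgeR; corrected 0.72, adjusted p = 0.00056). Its paralog DDIT4L went from 8.87 ± 0.922 to 4.25 ± 1.35 CPM (SD, n = 3; log2 difference -1.08, adjusted p = 0.0184; corrected -0.77). Of 26 genes of amino acid sensing, 3 were higher and none lower, where 10.8% and 8.81% of all genes were, and WDR24, a subunit of GATOR2, which relays amino acid supply, had the largest difference among them, 1.62 (adjusted p = 0.0245; corrected 0.54, adjusted p = 0.126), with 35.7% of its exonic bases under an opposite-strand gene. Among 10 AKT substrates and FOXO factors tested, BAD, a pro-apoptotic BCL2 relative that AKT phosphorylates, was the 1 gene past the threshold, beside the same shares of all genes. Its difference was 1.25 (adjusted p = 0.0429, edgeR) and 0.11 after the correction. In the corrected fit 3 of the 10 genes were higher and 1 lower, against 14.0% and 6.12% of all genes.

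Transcripts raised by FOXO factors, which AKT keeps out of the nucleus, did not move one way. Of 16 tested, 1 was higher and 1 lower at an adjusted p under 0.05, beside 10.8% and 8.81% of all genes. Their median log2 difference was -0.08. After the GC and length correction 4 were higher and 3 lower, against 14.0% and 6.12% of all genes. The 1 gene higher as counted was CITED2, named here after its values were seen (log2 difference 0.78, adjusted p = 0.0444, edgeR; corrected 0.96, adjusted p = 0.0031). PDK4, the kinase that shuts pyruvate dehydrogenase, fell from 9.17, 7.39 and 7.72 CPM to 1.49, 1.99 and 3.09 CPM (log2 difference -1.93, SE 0.27, adjusted p = 0.00391, edgeR; corrected -1.55, adjusted p = 0.00032). PIK3CA, RICTOR and IRS2, described above, also belong to that list.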

How the data were processed

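Total RNA of HEK293T cells was sequenced as stranded libraries. The authors aligned reads to hg38 with STAR (version 2.4.2a, Gencode 25) and deposited raw read counts per gene for each strand and for both together, and a merged count table, whose 25400 usable rows equal the gene-strand counts (2981 rows held no value). STAR assigns no read that overlaps more than one gene, leaving 948964 to 2608366 such reads per library. Lines naming no gene were left out.

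Of 58037 identifiers, 45 pseudoautosomal copies were dropped, and 57074 had a symbol. Genes with at least 10 reads in total were fitted together with edgeR 4.0.16 (quasi-likelihood test, TMM scaling, Benjamini-Hochberg adjustment, R 4.3.3). Calls required an adjusted p under 0.01 together with an absolute log2 fold change over 1, and 0.05 was a second threshold. GC content and length came from Gencode exons of the same assembly, for 99.8% of genes tested. The correction was a spline in both (5 degrees of freedom) per library, entered as an offset. Ratios were computed from counts plus 0.5 per kilobase of MANE Select transcript, a length chosen after the all-exon lengths were seen. The fit was tested on simulated data.

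Alternatives were DESeq2 1.42.0, other scaling, filters and counts, a replicate block, the correction, and leaving out each library. The correction with scaling recomputed, and with each library left out, were added after the data were seen. Members and lists were chosen with earlier results of these data known. Named beside the members were 9 fixed relatives, pathway and FOXO genes called, and the 12 largest differences with an adjusted p under 0.05 and at least 1 CPM; others are marked where named. Values of 2 of these relatives are not reported here.

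Same-numbered libraries correlated at 0.50, 0.43 and -0.28 in their deviations from group means, so the numbers were not used as pairs. The most alike libraries, sh-control 2 and 3, differed by more than sampling noise (chi-square per degree of freedom 4.73). Other pairs within a group ran from 14.2 (sh-RREB1 1 and 3) to 61.1 (sh-control 1 and 3). Pairs between groups ran from 36.9 (sh-control 3 and sh-RREB1 3) to 173.5 (sh-control 1 and sh-RREB1 2), so the ranges overlapped. Against sh-control 2, sh-control 1 had 48.9. Intervals and floors cover counting error only where they rest on one library.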

Additional observations from a re-analysis of the deposited data

Results flagged for a closer look

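Reads on the strand opposite to a core gene entered only the alternatives that counted reads of both strands. For TSC2 and PIK3CA they made up a larger share in every library labelled sh-RREB1 than in any sh-control library. For TSC2 the share was 0.281%, 0.829% and 2.42% of reads on both strands in sh-control libraries (95% Wilson intervals 0.0496% to 1.57%, 0.355% to 1.93% and 1.57% to 3.70%). In the libraries labelled sh-RREB1 it was 5.17%, 3.39% and 4.43% (4.12% to 6.47%, 2.64% to 4.34% and 3.10% to 6.30%). PKD1, whose exons overlap those of TSC2 on the other strand, had 20, 84 and 120 reads of its own in sh-control libraries and 214, 264 and 98 in the others (log2 difference 1.76, adjusted p = 0.0198, edgeR), and it also has near-identical pseudogene copies. For PIK3CA the share was 2.01%, 1.24% and 1.52% in sh-control libraries (1.45% to 2.77%, 0.814% to 1.89% and 1.05% to 2.19%) and 3.64%, 3.27% and 4.90% in the others (2.76% to 4.78%, 2.31% to 4.60% and 3.41% to 7.0%). KCNMB3, which overlaps PIK3CA on the other strand, had 61, 48 and 55 reads against 85, 35 and 46 (log2 difference 0.43, adjusted p = 0.464). The part of these neighbours in the shares was not tested. With 3 libraries per group, no test for a single outlying library was made.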

How the results depend on the processing

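Of the 8 core genes, 1 was called, and that count was 2 with DESeq2, with a filter of 1 read and with the replicate block, 0 after the GC and length correction, with that correction and the block, and with its scaling recomputed, and 0 to 2 when 1 library was left out. The 3 genes past an adjusted p of 0.05 were 5 with DESeq2, 5 with upper-quartile scaling, 6 with the block, 5 with the correction and block together, and 1 to 3 without 1 library, being 1 without sh-control replicate 2, sh-RREB1 replicate 2 or sh-RREB1 replicate 3. The 5 pathway genes called were 11 with DESeq2, 14 with a filter of 1 read, 14 with the block, 3 with scaling recomputed after the correction, and 0 to 6 without 1 library: 0 without sh-control replicate 2 or any library labelled sh-RREB1, and 2 without sh-control replicate 3. AKT1 was called with DESeq2, a filter of 1 read, the block, and without sh-control replicate 1. The cause of these shifts was not tested, beyond the fewer samples of the last kind.

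The log2 difference of PIK3CB was 0.0090 under the correction, 0.0036 with the block as well and -0.088 with scaling recomputed after the correction. It ran from -0.53 to 0.12 over fits without 1 library, the corrected ones included. PIK3R2 ran from -1.91 to 0.74 in such fits. The log2 ratio of PIK3R1 to PIK3R2 differed by -0.13 (exact permutation p = 1), by 1.31 after the correction and by -0.83 to 0.35 without 1 library, as its denominator was nearly unread. Under the fits run, AKT1, AKT2, TSC2 and MTOR stayed above 0 and PIK3CA and PIK3R1 below. The adjusted p of TSC2 ranged from 1.63e-08 to 0.0926 and that of AKT1 from 0.00063 to 0.208. RREB1 stayed below 0 in all 17 alternatives, with an adjusted p of 0.0817 or more. In the replicate block fit the log2 difference was 1.44 for TSC2 and 1.54 for AKT1. Upper-quartile scaling moved the median of all genes to -0.08. Over all genes, the 795 calls were 1647 with DESeq2, 1804 with a filter of 1 read, 1685 with the block, and 8 to 1120 without 1 library. Depth limits the precision of pathway genes near 1 CPM, such as ULK1 and TELO2 in sh-control libraries.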

Other observations

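Several of the genes described above lie near each other at the start of chromosome 16 (hg38), which was noticed after their values were seen. WDR24 begins at 684622, TELO2 at 1493344, TSC2 at 2047967 and MLST8 at 2204248, and NPRL3, another amino acid sensing gene, at 84271. Of 82 protein-coding genes with at least 1 CPM on average that begin within the first 3000000 bases, 52 were higher and 0 lower at an adjusted p under 0.05 (edgeR), with a median log2 difference of 1.13 and a median GC content of 62.6%. The 428 such genes on the rest of the chromosome had 93 higher and 43 lower, a median of 0.21 and a GC content of 51.9%. The 609 genes of all chromosomes with at least that median GC content had 404 higher and 1 lower and a median of 1.38. After the GC and length correction the medians were 0.24 at the start of chromosome 16, 0.07 on the rest of it and 0.19 for the GC-rich genes. PDPK1, which begins at 2537979 with a GC content of 53.4%, had a log2 difference of 0.18 (adjusted p = 0.431). No test of position was made.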
